A study of Mus musculus with 8 samples.

Results

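The genes described here encode the nuclear parts of the respiratory chain and ATP synthase, and they were read in mouse astrocytes treated with an inflammatory cocktail and in untreated astrocytes. They were taken by symbol from the deposited expression table, as every gene whose name starts with Nduf, Sdha to Sdhd, Uqcr, Cox4 to Cox8 or Atp5. This gave 96 of 21878 genes, namely 44 of complex I, 8 of complex II, 8 of complex III, 20 of complex IV and 16 of complex V, assembly factors included. Ndufa4 and Ndufa4l2 were counted with complex IV, where the Ndufa4 protein is now placed, and Atp5sl, an assembly factor of the complex I membrane arm, with complex I. Of the 96 genes, 90 passed the filter on low values and were tested.

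The respiratory chain passes electrons from NADH (complex I) and succinate (complex II) through coenzyme Q, complex III and cytochrome c to complex IV, which reduces oxygen. Complexes I, III and IV pump protons across the inner mitochondrial membrane, and ATP synthase (complex V) uses the returning protons to make ATP. Astrocytes make much of their ATP by glycolysis, and their respiratory chain also serves fatty acid oxidation and the production of reactive oxygen species.

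Polyadenylated RNA was sequenced from 4 libraries of astrocytes treated with a cocktail of the cytokines IL-1α and TNFα and the complement component C1q, and from 4 libraries of untreated astrocytes. All cells were wild-type and came from the brains of newborn C57BL/6 mice, and the cocktail was meant to bring them to a reactive state marked by the complement fragment C3d. The treatment label of 3 cocktail libraries writes C1q with another digit, and for these the title decided the group. The labels name no time or dose and do not say whether the libraries of a group came from separate cultures or animals, so the p-values measure the spread between libraries, which may be technical.

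Depth lay between 19195898 and 20640490 fragments per library. Cocktail libraries 1 and 2 stood apart from cocktail libraries 3 and 4: the chi-square of whole fragments per gene was 2.29 and 2.55 within these pairs and 4.12 to 6.79 between them, against 2.11 to 4.50 among untreated libraries. Of 9 astrocyte markers 8 were tested, and their sum was 812 to 841 FPKM in cocktail libraries and 992 to 1121 FPKM in untreated libraries. Gfap made up much of that difference (189 against 412 FPKM on average), and of the 8 tested, 6 fell while Slc1a2 and Aqp4 rose (ratios of means 5.37 and 1.53). At or near 0 were Cldn5 of endothelium and Mog of oligodendrocytes, listed at 0 in every library, while 3 of 6 neuronal markers (Rbfox3, Snap25 and Syt1) averaged under 1 FPKM. The summed 12 microglia markers stood at 17.9, 19.9, 41.6 and 58.2 FPKM in cocktail libraries 1 to 4, against 14.5 to 17.0 FPKM in untreated libraries. Sums of mural cell markers were 232 to 261 FPKM in cocktail libraries against 1065 to 1207 FPKM in untreated libraries. Acta2 and Tagln held most of the mural sum (on average 111 and 116 FPKM against 581 and 555 FPKM), and Pdgfrb averaged 16.4 against 20.4 FPKM. For neurons the sums were 49.4 to 56.0 against 139 to 157 FPKM. Stmn2 held most of the neuronal sum (38.8 against 125 FPKM on average), Map2 was also called lower, and Tubb3 was not called (limma, adjusted p = 0.072). For fibroblasts the sums were 83.6 to 114 against 103 to 127 FPKM. The fibroblast sum held opposite calls: Lum, Dcn and Pdgfra, the last also in the oligodendrocyte list, were called higher (ratios of means 32.5, 5.71 and 3.29), and Col1a1 and Col1a2 lower (0.705 and 0.598). Sums were 97.1 to 102 against 166 to 176 FPKM for the oligodendrocyte lineage, 65.7 to 78.0 against 113 to 124 FPKM for ependyma and 1.38 to 1.80 against 4.81 to 5.34 FPKM for endothelium. Their part in the results below was not tested, and in bulk RNA fewer cells of a type and less RNA per cell cannot be told apart.

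Within the family, 21 genes rose and 13 fell with the cocktail, and 56 did not pass the test (limma on log2(FPKM + 1), two-sided, adjusted p under 0.05 over all tested genes). FPKM is the number of fragments per unit of gene length, scaled to the total of the library. Of all 11845 genes tested, 26.6% were called higher and 41.1% lower, or 67.7% in either direction, so that the shares of 23.3% higher and 14.4% lower among the 90 tested members lie below both. The changes were small. None of the 90 reached 0.5 in either direction on the log2 scale, against 8.53% of all tested genes called higher and 14.5% called lower by at least that much. The median absolute change was 0.075 on the log2 scale over the members and 0.20 over all tested genes.

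The signed median change was 0.031 over the members and -0.050 over all tested genes. The member median was 0.0056 without cocktail library 2, 0.017 without cocktail libraries 1 and 2, 0.014 after quantile normalization and 0.094 after median-ratio scaling. For 54 of the 90 members the estimate lay within 0.1 of no change, and for 79 of them (87.8%) the 95% interval lay within 0.32 on the log2 scale, against 50.8% of all tested genes. The 4 cocktail and 4 untreated libraries did not overlap for 15 members with higher and 9 with lower cocktail values. Over all tested genes 24.1% were apart in the higher and 38.5% in the lower direction.

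The summed FPKM of all 96 genes was 7360, 7689, 7448 and 7380 in cocktail libraries 1 to 4 and 7369, 7317, 7145 and 7282 in untreated libraries 1 to 4. Cocktail library 2 had the highest sum and untreated library 3 the lowest, and cocktail library 1 lay below untreated library 1, so the groups overlapped. The sum averaged 7469 ± 151 FPKM in cocktail libraries and 7278 ± 95.5 FPKM in untreated libraries (SD, n = 4 each), and the genes took 0.733% ± 0.013 of the fragments in cocktail libraries and 0.718% ± 0.0058 in untreated libraries (SD, n = 4 each).

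The split into rises and falls depends on the scaling between libraries. Median-ratio scaling moved the median change of all tested genes by 0.057 on the log2 scale. With it, 42 of the 90 members were called higher and 5 lower, against 34.5% and 34.8% of all tested genes. The share of members called higher then lay above that of all tested genes. With quantile normalization 25 members were called higher and 19 lower, against 33.5% and 35.3% of all tested genes. Without cocktail libraries 3 and 4, 20 members rose and 6 fell, against 23.8% and 39.3% of all tested genes. Of the 13 lower calls, 8 changes shrank by over 1.5 times after median-ratio scaling, and after quantile normalization 4 grew and 1 shrank by that factor. Of the 21 higher calls, 6 grew by that factor after median-ratio scaling and 3 shrank by it after quantile normalization. The calls of 15 higher and 5 lower members held in all 19 alternative fits. The 15 included Cox6c, Cox7a2l, Cox7b, Cox7c, Atp5g1, Atp5g2, Atp5sl, Ndufa6, Ndufa10, Ndufb4, Ndufb9, Ndufs4, Sdhb and Sdhd, and the 5 were Cox6b2, Ndufaf7, Ndufb10, Ndufc1 and Sdhaf4.

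**Figure D1:**
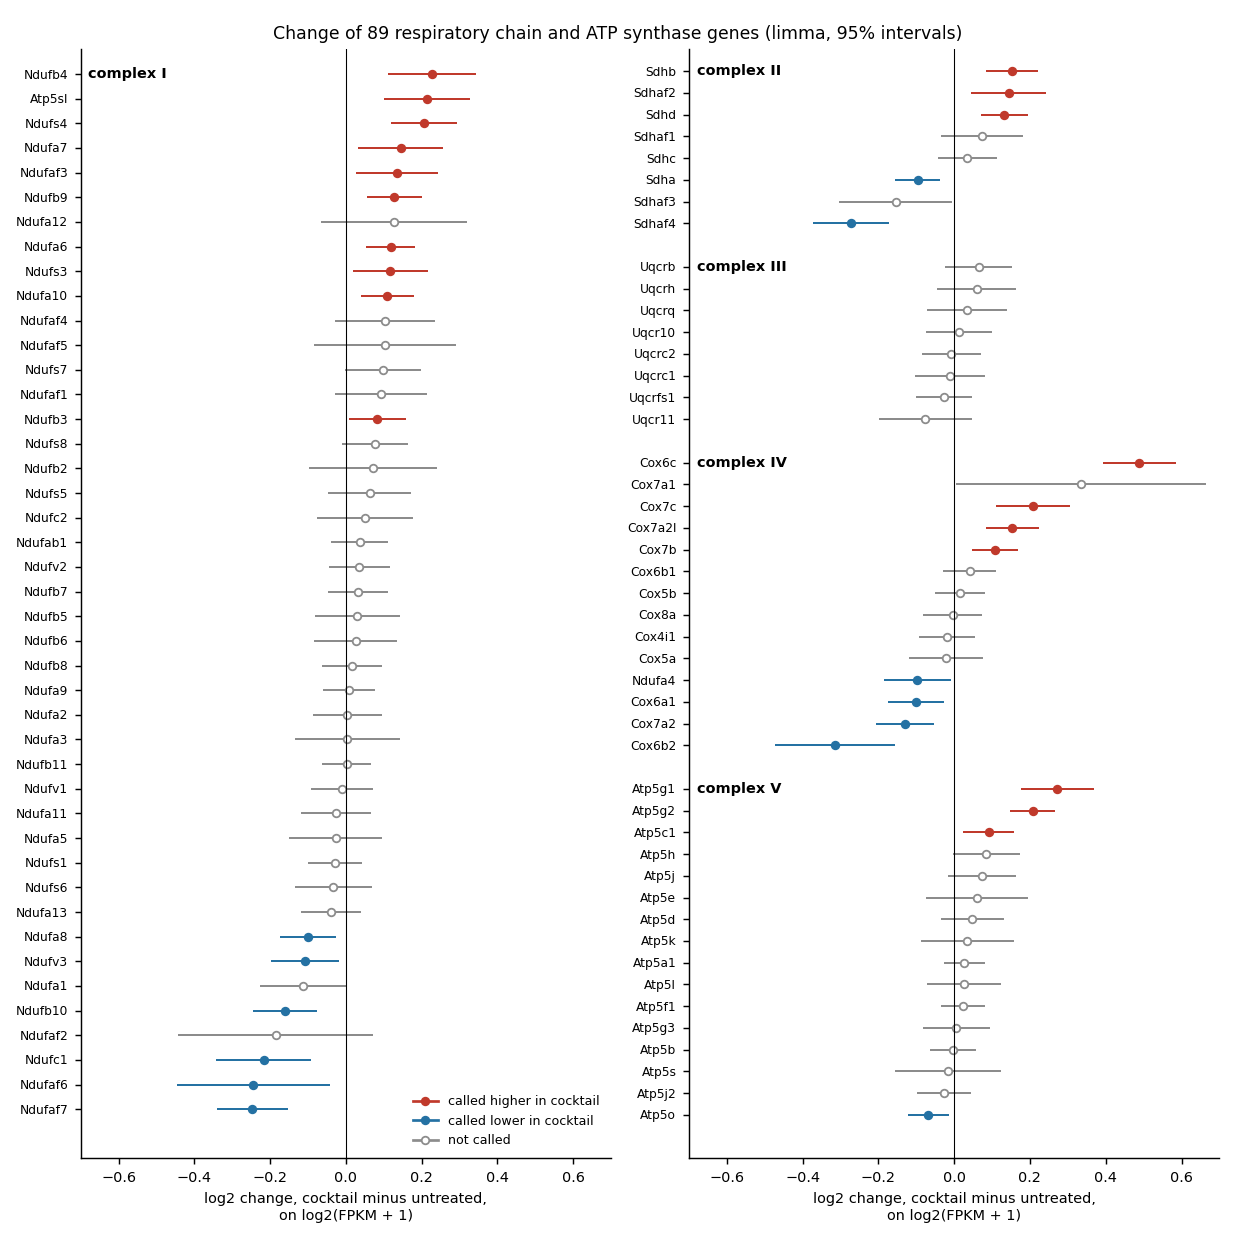
Change of 89 of the 90 tested genes, by complex, as the log2 difference of cocktail minus untreated libraries on log2(FPKM + 1) (x axis), with 95% intervals from limma. Filled red points are called higher (20 genes), filled blue points lower (13) and open grey points are not called (56). Complex III holds open points only, and Cox6c is the farthest from 0 at 0.49.

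Among the 44 genes of complex I, the NADH dehydrogenase, 11 rose (25%) and 6 fell (13.6%). Of all tested genes 26.6% were called higher and 41.1% lower, and these shares also stand beside the counts of the other complexes below. The summed level of complex I was 2158 ± 48.4 FPKM in cocktail libraries and 2098 ± 31.8 FPKM in untreated libraries (SD, n = 4 each).

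The core subunits of complex I include those that do its redox work. Ndufs3, a core subunit, averaged 66.8 ± 4.59 FPKM in cocktail libraries and 61.4 ± 1.63 FPKM in untreated libraries (SD, n = 4 each; limma, adjusted p = 0.032). The groups overlapped, and its call was lost in 8 of the 19 alternatives, among them the fits without cocktail library 1 (limma, adjusted p = 0.063), cocktail library 2 (0.074), and untreated libraries 2 (0.055), 3 (0.087) or 4 (0.059). Ndufs7, Ndufs8 and Ndufv2, which carry iron-sulfur clusters, had log2 changes of 0.10, 0.08 and 0.035 and were not called (limma, adjusted p = 0.074, 0.099 and 0.39), though all were called higher after median-ratio scaling (limma, adjusted p = 0.0098, 0.0081 and 0.024). Without cocktail library 4, Ndufs7 (limma, adjusted p = 0.0086) and Ndufs8 (0.034) were called higher. Ndufs1 and Ndufv1, the subunits of the NADH-oxidizing end, differed by -0.029 and -0.011 (limma, adjusted p = 0.43 and 0.80) and were positive after median-ratio scaling.

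The accessory subunits, which surround the core, moved in both directions. Ndufb4, a subunit of the membrane arm, was at 45.2, 54.6, 51.7 and 51.8 FPKM in cocktail libraries and at 43.0, 44.1, 44.7 and 40.9 FPKM in untreated libraries. Cocktail library 1 lay just above the highest untreated library and the other 3 lay further up (log2 change 0.23, limma, adjusted p = 0.0021). Ndufs4, whose loss causes a Leigh-like disease in mice, averaged 32.1 ± 1.03 FPKM in cocktail libraries and 27.7 ± 1.34 FPKM in untreated libraries (SD, n = 4 each; limma, adjusted p = 0.00047). Ndufb9, Ndufa6 and Ndufa10 rose by 0.13, 0.12 and 0.11 on the log2 scale with no overlap of the groups (limma, adjusted p = 0.0035, 0.0026 and 0.0080).

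Ndufb10, another membrane arm subunit, fell. It stood at 83.2, 85.5, 75.8 and 82.4 FPKM in cocktail libraries and at 94.9, 90.2, 91.35 and 89.3 FPKM in untreated libraries. The highest cocktail library was below the lowest untreated library (log2 change -0.16, limma, adjusted p = 0.0023). Ndufc1 averaged 33.5 ± 3.02 FPKM in cocktail libraries and 39.1 ± 1.72 FPKM in untreated libraries, with overlap (SD, n = 4 each; limma, adjusted p = 0.0047). Ndufv3, an accessory subunit at the NADH end, averaged 32.8 ± 1.18 FPKM in cocktail libraries and 35.4 ± 1.83 FPKM in untreated libraries (SD, n = 4 each; limma, adjusted p = 0.032). That call was lost after median-ratio scaling (limma, adjusted p = 0.33) and without cocktail library 4 (0.091) or untreated library 2 (0.095) or 4 (0.084).

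The assembly factors build the complexes without staying in them. Of 12 among the members, 3 rose and 3 fell. Atp5sl stood at 7.36, 7.46, 8.27 and 7.40 FPKM in cocktail libraries and at 6.71, 6.82, 6.09 and 6.11 FPKM in untreated libraries. All cocktail libraries were above all untreated ones, with cocktail library 3 the highest (log2 change 0.21, limma, adjusted p = 0.0027). Ndufaf7, a methyltransferase that acts early in the assembly of complex I, stood at 9.22, 8.83, 8.99 and 9.83 FPKM in cocktail libraries against 11.4, 10.9, 10.7 and 11.5 FPKM in untreated libraries. The groups did not overlap (log2 change -0.25, limma, adjusted p = 0.00022), and Ndufaf7 lies on chromosome 17 from 78937106 to 78948052 of GRCm38. The other called complex I genes had overlapping groups: Ndufa7, Ndufaf3 and Ndufb3 were higher by 0.15, 0.14 and 0.08 on the log2 scale, and Ndufa8 and Ndufaf6 lower (-0.10 and -0.24). Of these calls, 4 were near the threshold and were lost when any of several single libraries was left out. Ndufa7 lost its call without cocktail library 1 or 2 or untreated library 3 or 4, with limma adjusted p between 0.058 and 0.071, and Ndufaf3 without cocktail library 2 or 4 or untreated library 3 or 4 (0.064 to 0.076). Ndufb3 lost its call without cocktail library 1, 3 or 4 or untreated library 1 or 2 (limma, adjusted p between 0.061 and 0.12), and Ndufaf6 without cocktail library 2 or 4 or untreated library 1 or 2 (0.074 to 0.093). After quantile normalization the changes of Ndufa7 and Ndufaf6 were 0.057 and -0.088 and neither was called (limma, adjusted p = 0.35 and 0.42). Ndufaf6 also lost its call after median-ratio scaling (limma, adjusted p = 0.068), without the filter on low values (0.061) and in voom (0.059). Ndufaf3 and Ndufb3 lost theirs in voom (adjusted p = 0.077 and 0.14), and Ndufb3 also without the variance trend (limma, adjusted p = 0.074) and without the filter on low values (0.0504). Ndufa8 lost its call after median-ratio scaling (limma, adjusted p = 0.33).

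Complex II, succinate dehydrogenase, is the enzyme shared with the tricarboxylic acid cycle, and its subunit genes moved in opposite directions. Sdhb, the iron-sulfur subunit on chromosome 4 from 140961271 to 140979198, stood at 60.1, 61.1, 60.98 and 58.2 FPKM in cocktail libraries and at 55.0, 55.7, 51.8 and 53.4 FPKM in untreated libraries. Sdhd, a membrane anchor, stood at 73.4, 77.3, 75.3 and 74.9 FPKM in cocktail libraries and at 70.5, 67.6, 66.8 and 69.2 FPKM in untreated libraries. For both genes every cocktail library was above every untreated library, with log2 changes of 0.15 and 0.13 (limma, adjusted p = 0.00078 and 0.0011).

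Sdha, the flavoprotein that binds succinate, stood at 125, 129, 130.5 and 128 FPKM in cocktail libraries and at 141, 134, 137 and 137 FPKM in untreated libraries. Every cocktail library was below every untreated library (log2 change -0.10, limma, adjusted p = 0.0062), a call lost after median-ratio scaling (log2 change -0.033, limma, adjusted p = 0.28) and larger after quantile normalization (-0.18, adjusted p = 6.05e-05). Sdhc, the other membrane anchor, averaged 104 ± 3.65 FPKM in cocktail libraries and 101 ± 3.91 FPKM in untreated libraries and was not called (SD, n = 4 each; limma, adjusted p = 0.39). It was called higher after median-ratio scaling (limma, adjusted p = 0.026), and its difference was -0.0071 after quantile normalization.

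The 4 assembly factors of complex II included a rise and a fall. Sdhaf4, which binds Sdha after it has received its flavin and hands it on to Sdhb, stood at 14.7, 13.0, 14.6 and 14.0 FPKM in cocktail libraries and at 16.5, 18.0, 17.7 and 16.7 FPKM in untreated libraries. The groups did not overlap (log2 change -0.27, limma, adjusted p = 0.00017). Sdhaf2, which promotes the attachment of flavin to Sdha, averaged 14.9 ± 0.50 FPKM in cocktail libraries and 13.4 ± 0.785 FPKM in untreated libraries, with overlap (SD, n = 4 each; limma, adjusted p = 0.012), a call lost without cocktail libraries 3 and 4 (limma, adjusted p = 0.063). The complex II sum was 413 ± 7.17 FPKM in cocktail libraries and 408 ± 6.04 FPKM in untreated libraries (SD, n = 4 each).

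None of the 8 genes of complex III, the cytochrome bc1 complex, was called by limma, 0 had an unadjusted p under 0.05, and voom on recovered fragments called 0. All 8 estimates were within 0.1 of no change and ranged between -0.076 for Uqcr11 and 0.064 for Uqcrb. Uqcrfs1, the Rieske iron-sulfur protein, averaged 58.9 ± 1.0 FPKM in cocktail libraries and 60.1 ± 2.47 FPKM in untreated libraries (SD, n = 4 each). The core proteins Uqcrc1 and Uqcrc2 averaged 90.04 ± 5.94 and 68.9 ± 3.18 FPKM in cocktail libraries, and 90.6 ± 1.08 and 69.3 ± 1.54 FPKM in untreated libraries (SD, n = 4 each). Their 95% intervals were -0.10 to 0.08 for Uqcrc1 and -0.08 to 0.07 for Uqcrc2 on the log2 scale, and the small negative differences of Uqcrfs1, Uqcrc1 and Uqcrc2 turned positive after median-ratio scaling. That scaling also gave calls for Uqcrb (limma, adjusted p = 0.0095) and Uqcrh (0.032), both higher. Uqcrb was called higher without cocktail library 1 too (limma, adjusted p = 0.039), and Uqcr11 lower without untreated library 3 (0.038).

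In complex IV, cytochrome c oxidase, 4 of the 14 tested genes rose and 4 fell. The nuclear genes of this complex encode subunits that surround a catalytic centre made from mitochondrial DNA. Cox6c, one of these subunits, had the largest change of all 90 tested members. It stood at 224, 236, 239.9 and 253 FPKM in cocktail libraries and at 176, 177, 158 and 167 FPKM in untreated libraries. The lowest cocktail library lay well above the highest untreated library. Its mean was 238 ± 11.6 FPKM in cocktail libraries and 170 ± 8.65 FPKM in untreated libraries (SD, n = 4 each), 40.5% higher, with a log2 change of 0.49, standard error 0.043 (limma, adjusted p = 8.1e-07). Cox6c lies on chromosome 15 from 35931976 to 35938246 and was tested on 1600 to 2579 fragments per library.

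Cox7c stood at 142, 150.1, 164 and 155 FPKM in cocktail libraries and at 126, 138, 129 and 134 FPKM in untreated libraries, with no overlap (log2 change 0.21, limma, adjusted p = 0.0011). Cox7b rose by 0.11 on the log2 scale, also with no overlap (limma, adjusted p = 0.0032). Cox4i1, Cox5a and Cox5b, which sit next to the catalytic subunits, had log2 changes of -0.020, -0.022 and 0.014 and were not called (limma, adjusted p = 0.60, 0.68 and 0.67). After median-ratio scaling the first 2 turned positive and Cox5b was called higher (limma, adjusted p = 0.033), and after quantile normalization Cox4i1 and Cox5b were called lower (0.0025 and 0.019). Cox8a, a small subunit, averaged 217 ± 10.3 FPKM in cocktail libraries and 217 ± 3.98 FPKM in untreated libraries (SD, n = 4 each; limma, adjusted p = 0.92) and was called lower after quantile normalization (0.0039).

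Cox6a1 stood at 209, 213, 197 and 196 FPKM in cocktail libraries and at 216, 223, 214 and 220.4 FPKM in untreated libraries. The groups did not overlap (log2 change -0.10, limma, adjusted p = 0.015), and the call was lost after median-ratio scaling (limma, adjusted p = 0.35) and without cocktail libraries 3 and 4 (0.16). After quantile normalization its change was -0.22 (limma, adjusted p = 0.00015). Ndufa4 averaged 165 ± 9.40 FPKM in cocktail libraries and 177 ± 5.01 FPKM in untreated libraries (SD, n = 4 each; limma, adjusted p = 0.046). Its call was lost in 12 of 19 alternatives, including every fit that left out 1 library other than cocktail library 2, with adjusted p between 0.052 and 0.13 in those limma fits. The complex IV sum was 2022 ± 38.1 FPKM in cocktail libraries and 1956 ± 25.3 FPKM in untreated libraries (SD, n = 4 each).

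**Figure D2:**
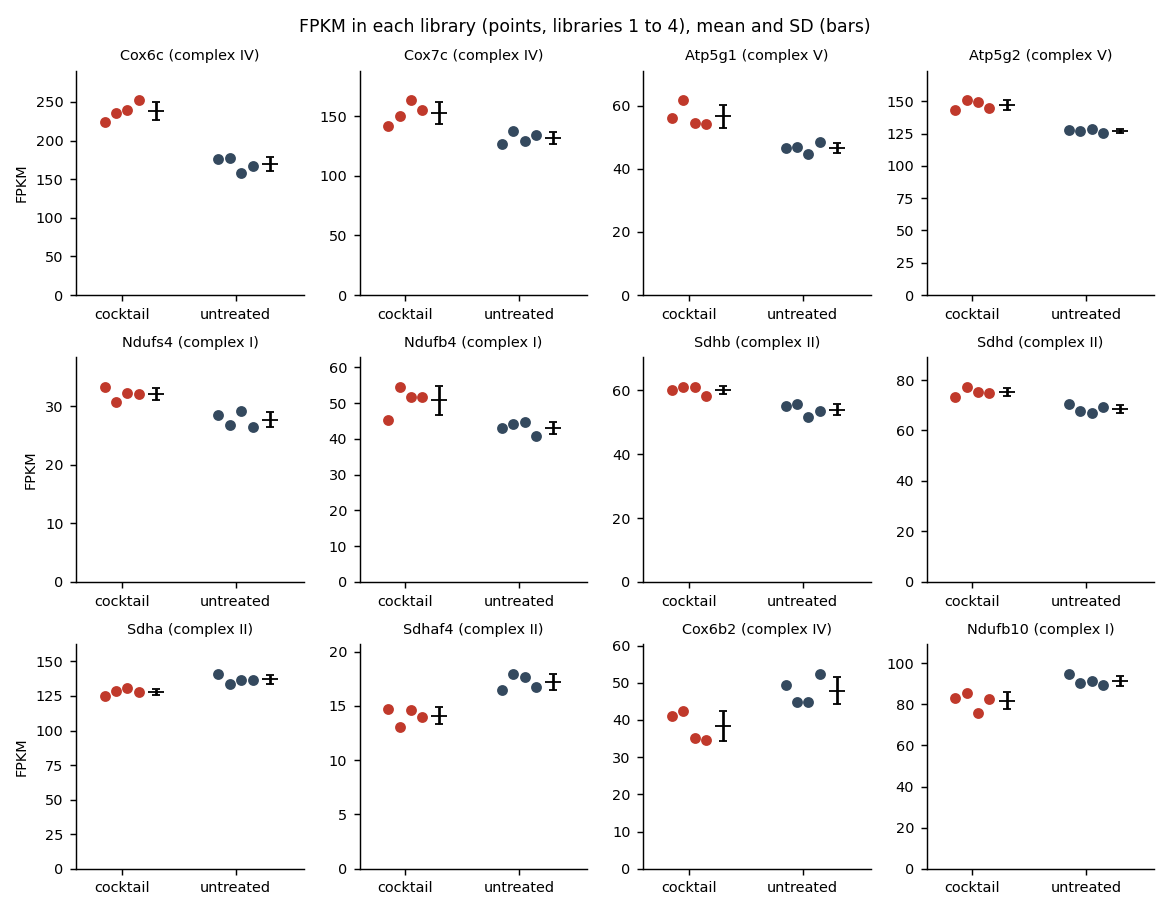
FPKM (y axes, from 0) of 12 called genes in each of the 4 cocktail (red, left) and 4 untreated (dark blue, right) libraries, with the mean and SD as bars. The 8 genes of the first 2 lines of panels are higher in every cocktail library and the 4 genes of the last line lower in every cocktail library, and Cox6c spans 224 to 253 FPKM in cocktail libraries against 158 to 177 FPKM in untreated libraries.

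In complex V, ATP synthase, 3 of 16 genes rose and 1 fell, and 14 of the estimates were within 0.1 of no change. The sum was 2144 ± 47.0 FPKM in cocktail libraries and 2091 ± 21.7 FPKM in untreated libraries (SD, n = 4 each). Atp5b, the catalytic beta subunit and the most abundant of all 96 genes per length, stood at 409.6, 426, 411 and 406 FPKM in cocktail libraries and at 409.2, 406, 420.1 and 420.4 FPKM in untreated libraries. The groups overlapped throughout, and the 95% interval of the log2 difference was -0.06 to 0.05 (limma, adjusted p = 0.91). After quantile normalization it was called lower by 0.19 (limma, adjusted p = 3.9e-05).

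Atp5a1, the alpha subunit, averaged 287 ± 5.11 FPKM in cocktail libraries and 281 ± 1.23 FPKM in untreated libraries (SD, n = 4 each; limma, adjusted p = 0.34). It was called higher after median-ratio scaling (log2 change 0.09, limma, adjusted p = 0.0069) and lower after quantile normalization (-0.10, 0.0023). Cox5b and Cox6b1 likewise had opposite calls under these 2 scalings. Atp5c1, the gamma subunit that turns inside the catalytic head, averaged 77.8 ± 2.27 FPKM in cocktail libraries and 73.0 ± 1.77 FPKM in untreated libraries, with overlap (SD, n = 4 each; limma, adjusted p = 0.016). Without cocktail libraries 3 and 4 that call was lost (limma, adjusted p = 0.13). Atp5d and Atp5e, the other small subunits of the head, were not called (limma, adjusted p = 0.27 and 0.39), and Atp5d was called higher after median-ratio scaling (0.022).

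Atp5o, a subunit of the stalk that holds the head in place, averaged 157 ± 2.69 FPKM in cocktail libraries and 164 ± 1.89 FPKM in untreated libraries, with no overlap (SD, n = 4 each; log2 change -0.068, limma, adjusted p = 0.025). After median-ratio scaling its change was -0.0044 (limma, adjusted p = 0.88), and the call was also lost without cocktail library 1 (0.064), cocktail library 4 (0.056) or untreated library 3 (0.073). After quantile normalization the change was -0.16 (limma, adjusted p = 6.57e-05).

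The c ring of ATP synthase, which the returning protons turn, is built from a single protein that is made by 3 genes, Atp5g1, Atp5g2 and Atp5g3. Their mature proteins are identical and their precursors differ in the targeting sequence. Atp5g1 stood at 56.1, 61.8, 54.4 and 54.2 FPKM in cocktail libraries and at 46.6, 47.1, 44.7 and 48.4 FPKM in untreated libraries. Atp5g2 stood at 143, 151, 149.6 and 145 FPKM in cocktail libraries and at 128, 127, 129 and 125 FPKM in untreated libraries. Both were higher in every cocktail library, with log2 changes of 0.27 and 0.21 (limma, adjusted p = 0.00012 and 2.0e-05).

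Atp5g3 stood at 159.6, 173, 174 and 163 FPKM in cocktail libraries and at 173, 161, 159 and 174 FPKM in untreated libraries. The groups overlapped throughout, and the 95% interval of its log2 change was -0.08 to 0.09 (limma, adjusted p = 0.91). It was also not called after median-ratio scaling (0.07, limma, adjusted p = 0.14) or quantile normalization (-0.09, 0.059), while Atp5g1 and Atp5g2 were called higher under both. Of the summed FPKM of the trio, Atp5g1 made up 15.3% ± 0.727 in cocktail libraries and 13.7% ± 0.331 in untreated libraries, and Atp5g2 39.6% ± 0.363 in cocktail libraries and 37.4% ± 1.1 in untreated libraries (SD, n = 4 each). Atp5g3 made up 45.1% ± 0.667 in cocktail libraries and 48.9% ± 1.09 in untreated libraries (SD, n = 4 each). Atp5g3 remained the most abundant of the trio per length in all 8 libraries. These shares are taken within a library and do not change where each library is scaled by 1 factor, as in median-ratio scaling; quantile normalization can change them. The trio's sum was 371 ± 12.9 FPKM in cocktail libraries and 341 ± 8.04 FPKM in untreated libraries.

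The promoters of the trio are shown because 2 of these 3 genes of a single protein were called higher and the other was not, and that of Ndufs4, also called higher, as an example of the Yy1 motif. Each sequence is from RefSeq on GRCm38.p6, 5′ to 3′, from 250 bases before the start to 50 bases after it. The capitals mark an exact match of the palindromic motif of the nuclear respiratory factor Nrf1 in Atp5g2 and of the motif of the factor Yy1 in Ndufs4. The match in Ndufs4 lies 35 bases after the start, not before it. The windows lie at chr11:96075582-96075881 for Atp5g1, chr15:102670998-102671297 for Atp5g2 and chr2:73911277-73911576 for Atp5g3, all on the minus strand, and at chr13:114388045-114388344 on the minus strand for Ndufs4.
Atp5g1: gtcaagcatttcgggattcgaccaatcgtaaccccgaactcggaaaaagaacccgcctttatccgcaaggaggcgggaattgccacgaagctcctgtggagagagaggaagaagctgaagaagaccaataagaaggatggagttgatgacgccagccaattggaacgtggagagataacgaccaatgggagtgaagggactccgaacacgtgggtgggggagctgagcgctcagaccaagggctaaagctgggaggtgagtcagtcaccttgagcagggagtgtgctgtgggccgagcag
Atp5g2: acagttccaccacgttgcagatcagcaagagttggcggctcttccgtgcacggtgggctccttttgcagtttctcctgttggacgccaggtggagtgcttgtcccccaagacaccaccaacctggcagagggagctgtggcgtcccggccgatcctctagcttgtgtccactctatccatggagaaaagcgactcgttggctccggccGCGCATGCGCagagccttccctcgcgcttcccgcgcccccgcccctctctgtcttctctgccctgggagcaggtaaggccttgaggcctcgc
Atp5g3: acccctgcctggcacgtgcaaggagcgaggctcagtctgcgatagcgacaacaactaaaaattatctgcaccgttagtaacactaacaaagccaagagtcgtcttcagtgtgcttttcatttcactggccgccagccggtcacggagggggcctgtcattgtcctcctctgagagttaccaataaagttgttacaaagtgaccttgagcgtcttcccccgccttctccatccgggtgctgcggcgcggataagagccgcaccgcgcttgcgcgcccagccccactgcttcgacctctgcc
Ndufs4: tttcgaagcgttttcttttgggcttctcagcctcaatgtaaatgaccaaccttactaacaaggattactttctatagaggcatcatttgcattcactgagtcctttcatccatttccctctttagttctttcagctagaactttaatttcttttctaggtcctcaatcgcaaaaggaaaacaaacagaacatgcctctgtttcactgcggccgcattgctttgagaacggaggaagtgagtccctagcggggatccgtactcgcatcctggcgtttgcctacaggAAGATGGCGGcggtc

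In these windows the Nrf1 motif was found in Atp5g2, starting 42 bases before the start, and not in Atp5g1 or Atp5g3. The gene span of Atp5g3 reaches to 73912464, beyond its window, and that end of the span was not searched. Promoters were matched for 80 of the 96 members and searched on both strands for both motifs, as written in the capitals, and for CCGGAAGT, the motif of ETS factors such as GABP. The Nrf1 motif was in 8.75% of the 80, against 1.07% of all 27025 genes with a promoter and 2.37% of 9467 other tested genes. The Yy1 motif was in 7.50% of the 80, against 0.995% of all and 2.45% of other tested genes. CCGGAAGT was in 6.25% of the 80, against 4.31% of all and 9.39% of other tested genes. Of the 7 members with the Nrf1 motif, 1 was called higher (Atp5g2), 1 lower (Cox6a1) and 5 were not called. Of the 6 with the Yy1 motif, 2 were called higher, 0 lower and 4 were not called, and a match is a description of the letters only.

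Several subunits of complex IV also come as paralogs. Cox7a2l, a paralog of Cox7a2, stood at 81.3, 81.5, 82.0 and 83.0 FPKM in cocktail libraries and at 72.4, 72.1, 71.7 and 78.3 FPKM in untreated libraries. Cox7a2, the paralog found in most tissues, stood at 63.0, 61.8, 59.2 and 59.5 FPKM in cocktail libraries and at 69.6, 66.6, 63.4 and 67.3 FPKM in untreated libraries. Neither gene's groups overlapped, and the 2 paralogs moved in opposite directions, with log2 changes of 0.15 for Cox7a2l (limma, adjusted p = 0.00089) and -0.13 for Cox7a2 (limma, adjusted p = 0.0047).

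The call of Cox7a2 was lost after median-ratio scaling (limma, adjusted p = 0.11) and without cocktail libraries 3 and 4 (0.055). Its gene span shares 2482 bases with Tmem30a on the same strand, which was also called lower, at 54.0 FPKM in cocktail libraries against 59.9 FPKM in untreated libraries. The counting could have shared fragments between them. Within the trio with Cox7a1, Cox7a2l made up 55.9% ± 1.2 in cocktail libraries and 51.4% ± 1.32 in untreated libraries, and Cox7a2 41.5% ± 0.687 in cocktail libraries and 46.6% ± 1.12 in untreated libraries (SD, n = 4 each). Neither share overlapped between the groups. Cox7a1, the paralog of heart and skeletal muscle, was low at 3.79 ± 0.823 FPKM in cocktail libraries and 2.82 ± 0.812 FPKM in untreated libraries and was not called (SD, n = 4 each; limma, adjusted p = 0.066). It was called higher without untreated library 1 (limma, adjusted p = 0.015) and without cocktail library 3 (0.043), 4 (0.039) or both (0.010). It was also called higher after median-ratio scaling (limma, adjusted p = 0.0395) and quantile normalization (0.017), and 7 alternatives in all called it higher.

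Cox6b2, known as the testis paralog of Cox6b1, was well expressed here and had the largest fall of the 90. It stood at 41.1, 42.5, 35.2 and 34.6 FPKM in cocktail libraries and at 49.5, 44.9, 44.8 and 52.4 FPKM in untreated libraries. The groups did not overlap, and cocktail libraries 3 and 4, which also had the highest microglia marker sums, were the lowest (log2 change -0.31, limma, adjusted p = 0.0019). Without cocktail libraries 3 and 4 it was still called, at the smallest change of all alternatives, -0.19. Its share of the pair was 12.1% ± 1.17 in cocktail libraries and 15.04% ± 1.44 in untreated libraries (SD, n = 4 each), and Cox6b1 was at 279 ± 4.39 FPKM in cocktail libraries and 271 ± 10.3 FPKM in untreated libraries and was not called (limma, adjusted p = 0.25).

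**Figure D3:**
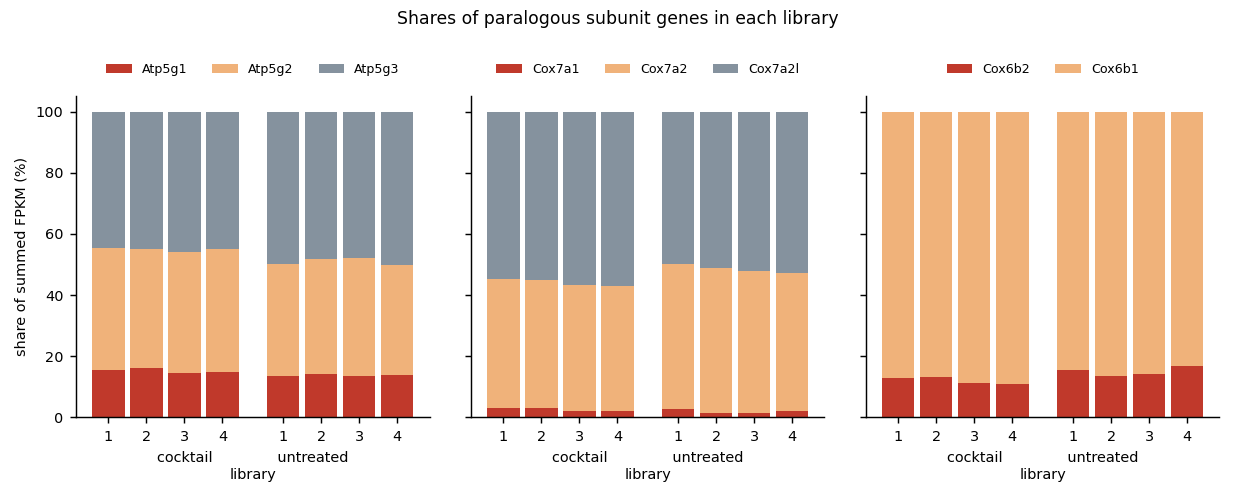
Share (%) of each paralog in the summed FPKM of its pair or trio, in cocktail libraries 1 to 4 (left bars) and untreated libraries 1 to 4 (right bars). Atp5g3 averages 45.1% in cocktail and 48.9% in untreated libraries, Cox7a2 41.5% and 46.6%, and Cox6b2 12.1% and 15.04%.

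The other tissue-specific paralogs were near or at 0. Cox4i2, the lung paralog of Cox4i1, averaged 0.759 ± 0.063 FPKM in cocktail libraries and 0.518 ± 0.126 FPKM in untreated libraries (SD, n = 4 each), on 15 to 35 fragments, and made up 0.274% and 0.185% of the pair. Ndufa4l2, a gene known to rise in hypoxia, averaged 0.082 FPKM in cocktail libraries and 0.107 FPKM in untreated libraries, on 1 to 4 fragments a library. Neither passed the filter. Cox6a2 and Cox8b, the muscle paralogs, and Cox7b2 were listed at 0 in all 8 libraries, and Cox8c was above 0 in 1 untreated library only. For a gene of 500 bases a count of 0 allows up to 3 fragments, or 0.291 to 0.313 FPKM, for counting error only.

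Per length, subunit genes were more abundant than assembly factor genes. Over the 74 subunit genes other than tissue paralogs the median level was 76.6 FPKM in cocktail libraries and 71.8 FPKM in untreated libraries, and over the 12 assembly factors it was 8.93 FPKM in cocktail libraries and 10.5 FPKM in untreated libraries. The median log2 change was 0.028 over these 74 genes and 0.083 over the 12 assembly factors. A median of levels thus does not give the change of its genes. By complex the median level of subunit genes in cocktail libraries was 53.6 FPKM in complex I, 89.4 in complex II, 90.1 in complex III, 165 in complex IV and 110.4 in complex V, against 53.8, 84.9, 92.8, 169.6 and 105 FPKM in untreated libraries. The lowest subunit gene was Ndufa11 in complex I at 15.9 FPKM in cocktail libraries and 16.2 FPKM in untreated libraries, and the highest was Atp5b at 413 FPKM in cocktail libraries and 414 FPKM in untreated libraries. The members were short, with a median length of 838 bases over the 90 against 3520 bases over all tested genes. Among the 50 members under 1000 bases the median log2 change was 0.026, and among 539 other tested genes of that length 0.017. From 1000 to 2000 bases it was 0.035 over 29 members and -0.018 over 1937 other tested genes. From 2000 to 4000 bases it was -0.016 over 11 members and -0.043 over 4233 other tested genes. The 5046 genes over 4000 bases, none of them members, had a median of -0.077.

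Replicates varied about as much as for other genes within the broad range of levels that holds most members. Levels were not matched inside that range. The median coefficient of variation of FPKM was 4.59% in cocktail and 3.86% in untreated libraries over the members, against 4.34% and 3.97% over 8914 other tested genes with mean levels between 4.00 and 214.5 FPKM. Of those 8914 genes 28.4% were called higher and 39.2% lower, and 56.2% had 95% intervals within 0.32, compared with 87.8% of the members.

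Genes around the respiratory chain were read from lists chosen by function. Beside the counts of each list stand the 26.6% of all tested genes called higher and the 41.1% called lower. Of 5 respiratory subunit, carrier and inhibitor genes outside the name pattern, 1 fell: Atpif1, the inhibitor that blocks ATP hydrolysis by complex V, averaged 39.6 ± 1.5 FPKM in cocktail libraries and 48.3 ± 2.38 FPKM in untreated libraries (SD, n = 4 each; limma, adjusted p = 5.5e-05). Of 37 tested assembly factors outside the pattern 10 rose and 6 fell, with a median log2 change of 0.044. Coa6 and Cmc2, complex IV factors, fell by 0.68 and 0.57 on the log2 scale, and Nubpl, which supplies iron-sulfur clusters to complex I, fell by 0.53. Uqcc2, a complex III factor, rose by 0.35 (limma, adjusted p = 0.00071). Of 10 genes of coenzyme Q synthesis 1 rose (Coq9, log2 change 0.18) and 3 fell, led by Adck3 at -0.62.

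The median absolute log2 change was 0.34 over the carrier list and 0.095 over the cycle list, against 0.075 over the chain. Of 9 mitochondrial carriers and channels 2 rose and 6 fell, with a median of -0.30. Slc25a3, the phosphate carrier that feeds ATP synthase, averaged 183 ± 8.43 FPKM in cocktail libraries and 258 ± 6.79 FPKM in untreated libraries (SD, n = 4 each; limma, adjusted p = 1.2e-07), and Vdac3, an outer membrane channel, averaged 84.8 ± 3.60 FPKM in cocktail libraries and 63.9 ± 1.84 FPKM in untreated libraries. Of 19 genes of the tricarboxylic acid cycle list 3 rose and 8 fell. Idh2, the NADP-dependent isocitrate dehydrogenase, averaged 87.0 ± 3.44 FPKM in cocktail libraries and 125 ± 6.18 FPKM in untreated libraries (SD, n = 4 each; limma, adjusted p = 2.4e-07). Acod1, which diverts aconitate to itaconate, an inhibitor of succinate dehydrogenase, stood at 15.9, 15.2, 18.9 and 20.7 FPKM in cocktail libraries and at 1.12, 1.55, 1.29 and 0.768 FPKM in untreated libraries (limma, adjusted p = 3.4e-10). Acod1 is known from macrophages and microglia, whose marker sum was highest in cocktail libraries 3 and 4. In cocktail libraries 1 and 2 that sum was 17.9 and 19.9 FPKM, against at most 17.0 FPKM in untreated libraries. Cd68, Fcer1g and Itgam were above every untreated library there, while Csf1r, Tyrobp, C1qa, C1qb and C1qc were not. The part of these cells in the rise of Acod1 was not tested.

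Of 13 regulators of mitochondrial biogenesis 4 were called higher (30.8%) and 0 lower, against 26.6% and 41.1% of all tested genes. The 4 were Tfb1m, Pprc1, the coactivator gene Ppargc1a and Yy1, with log2 changes of 0.42, 0.33, 0.24 and 0.14 (limma, adjusted p = 0.00034, 0.0002, 0.00035 and 0.0010). Of 8 mitochondrial antioxidant genes 4 rose, among them Sod2, Prdx5 and Prdx3 at 3.58, 0.35 and 0.31, and 2 fell, among them Gpx1 at -0.49. Of 12 hypoxia targets 4 rose, led by Adm and Ndrg1 at 1.63 and 1.54, and 6 fell, led by Car9 and P4ha1 at -1.78 and -0.97.

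Genes for the proteins of both ribosomes gave a further comparison. Of 77 tested mitochondrial ribosomal protein genes 22 rose (28.6%) and 10 fell (13.0%), against 26.6% and 41.1% of all tested genes. The median change of these 77 was 0.045, close to the 0.031 of the respiratory chain. Mrpl38 and Mrps6 were the ends of that list, at 0.85 and -1.08. Of 77 tested cytosolic ribosomal protein genes 75 rose and 1 fell, with a median of 0.41, and none lay within 0.1 of no change. Many of these have pseudogenes, and the counting could have split their fragments.

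**Figure D4:**
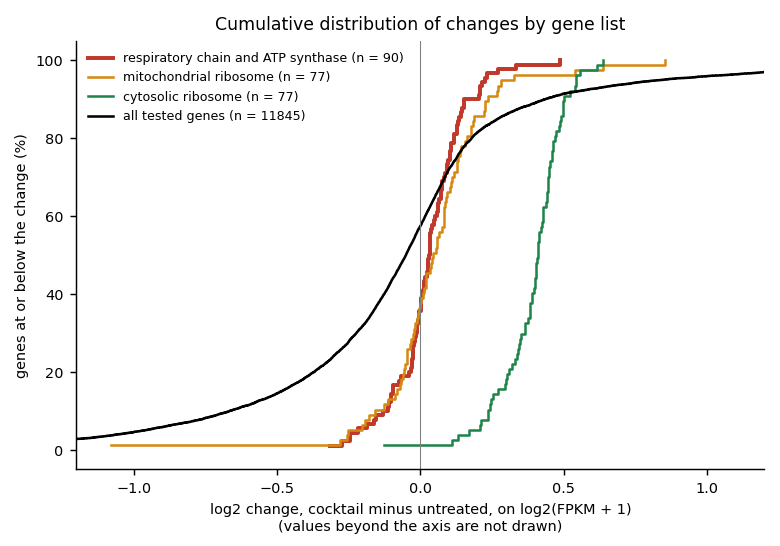
Cumulative share of genes (%, y axis) at or below a given log2 change of cocktail minus untreated libraries on log2(FPKM + 1) (x axis), for the 90 respiratory chain and ATP synthase genes, 77 mitochondrial ribosomal genes, 77 cytosolic ribosomal genes and all 11845 tested genes. The respiratory curve climbs steeply around 0 (median 0.031), the cytosolic ribosomal curve lies to its right (median 0.41), and the curve of all tested genes is the broadest (median -0.050).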

How the data were processed

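The data were 8 libraries of polyadenylated RNA, 4 cocktail and 4 untreated, whose groups were read from the sample titles. Per the labels' protocols, TRIzol was used to extract the RNA and a stranded mRNA kit to build libraries. The authors deposited FPKM values per gene. DESeq and the build mm10 stand in the submitters' processing notes. No aligner, counter or strand setting of the counting is named in the sources used here.

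Members, gene lists and tests were chosen with earlier results of these data known. Values were tested as log2(FPKM + 1) in limma 3.58.1 (R 4.3.3), two-sided, with the variance following mean expression. A gene entered where 4 or more libraries held 1 FPKM or more, p-values were adjusted by Benjamini-Hochberg over all 11845 such genes, and the threshold was 0.05. A fold change on this scale understates the change of low genes. Levels, sums, shares and motifs were computed with Python 3.11.15 (pandas 2.3.3, numpy 2.4.6) and have no test.

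Within a gene the deposited FPKM stood in ratios of whole numbers (relative tolerance 1e-11). This returned whole fragments for the 16557 genes with values above 0 in 2 or more libraries, 99.86% to 99.89% of each total. No pair of libraries of a group agreed within sampling noise (chi-square per gene of 2.11 or more over genes with at least 20 fragments), so each entered as 1 sample. The fit and the recovery were tested on simulated data.

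Alternatives were no filter, a mean of at least 5 FPKM, a pseudocount of 0.1, median-ratio scaling, quantile normalization, no variance trend, robust empirical Bayes, a replicate block, voom on recovered fragments, each cocktail pair of libraries left out, and each library left out.

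Named members were, per complex, up to 3 rises and 3 falls among called genes with no overlap of the groups, the paralog pairs and the catalytic and redox core. Per outside list up to 4 called genes with the largest changes were named. Other members named in the text were chosen after their values were seen. Positions and promoters are from RefSeq on GRCm38.p6, the assembly that mm10 names, and gene overlaps from GENCODE on GRCm38. All 96 members had a position, 31 overlap another gene and 15 a protein-coding one. One member counted in the totals is not reported here by name or drawn.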

Additional observations from a re-analysis of the deposited data

Results flagged for a closer look

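In 4 of 84 groups of 4 libraries examined among the named members, 1 library stood apart from the other 3 by Dixon's criterion (the gap to the nearest library over the range of the group), which chance gives in about 1 of 20 groups. Atp5sl was highest in cocktail library 3, at 8.267 FPKM with the next library at 7.457. Cox7a2l was highest in untreated library 4, at 78.26 FPKM with the next at 72.41, still below every cocktail library. Ndufs7 was lowest in untreated library 3, at 25.35 FPKM with the next at 27.14. Ndufv2 was highest in untreated library 2, at 42.67 FPKM with the next at 39.36.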

How the results depend on the processing

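Of the 22 called genes among 42 tested named members, 14 kept their call in all 19 alternatives. Of 797 values of named members under the alternatives, 690 kept direction and side of the threshold, 40 were no longer past it, 22 were newly past it and 45 turned sign. Median-ratio scaling gave 42 members higher and 5 lower, with a member median of 0.0938, and leaving out cocktail libraries 3 and 4 gave 6 lower. Log2 changes that turned sign were those of uncalled genes. After median-ratio scaling they were 0.0604 for Atp5b, 0.0435 for Cox4i1, 0.0417 for Cox5a, 0.0595 for Cox8a, 0.0333 for Ndufs1, 0.0519 for Ndufv1, 0.0524 for Uqcrc1, 0.0551 for Uqcrc2 and 0.0354 for Uqcrfs1. After quantile normalization they were -0.1019 for Atp5a1, -0.0862 for Atp5g3, -0.0768 for Cox5b, -0.0793 for Cox6b1 and -0.0071 for Sdhc. Without cocktail libraries 1 and 2 they were -0.0100 for Atp5e and 0.0179 for Uqcrc2, and without cocktail libraries 3 and 4 0.0125 for Atp5b, -0.0047 for Atp5g3, 0.0321 for Cox4i1, 0.0089 for Cox5a, 0.0422 for Cox8a, -0.0019 for Ndufv2 and 0.0380 for Uqcrc1. With 1 library left out, the changes ranged between -0.0180 and 0.0047 for Atp5b, -0.0359 and 0.0153 for Ndufv1, -0.0354 and 0.0151 for Uqcrc2, -0.0164 and 0.0277 for Atp5g3, -0.0032 and 0.0309 for Cox5b, -0.0456 and 0.0039 for Cox4i1, -0.0490 and 0.0271 for Uqcrc1, -0.0457 and 0.0097 for Cox5a, and -0.0318 and 0.0235 for Cox8a. The cause was not tested. Deviations from the group means correlated at -0.044, 0.078, 0.086 and -0.007 between libraries of the same replicate number. Between libraries of different numbers they correlated at -0.105 to 0.053. These small values cannot decide whether the samples are paired, since the labels do not say how the libraries were made. The replicate block gave 24 members higher and 13 lower, against 26.3% and 40.8% of all tested genes. It called Cox7a1 higher (limma, adjusted p = 0.033).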
